A study of Mus musculus with 2 samples.

Results

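Endothelial cells of the mouse pituitary, the cells that line its blood vessels, were chosen by their transcripts, as barcodes of a single-cell library with at least 8 UMIs (unique molecular identifiers, each standing for 1 captured transcript) summed over Plvap, Pecam1, Cdh5, Kdr, Emcn and Egfl7. A barcode was first kept at 2000 UMIs, 500 genes and at most 15% mitochondrial UMIs, and it was left out with more than 5 UMIs of the fibroblast genes Col1a1, Col1a2, Dcn and Lum or more than 5 of the macrophage genes C1qa, C1qb and C1qc. These limits gave 160 endothelial cells, called members here, of 18993 kept barcodes, 88 of 9210 in the young library and 72 of 9783 in the old one. The series asked how the pituitary differs with age at the level of single cells. Glands of male C57BL/6 mice were dissociated, red cells were lysed, and 3′ libraries were made in droplets. The young library held 10 pooled glands of mice aged 2 months and the old library 10 pooled glands of mice aged 20 months, so there was 1 library per age and no replicate. All intervals are 95% intervals that cover counting error alone, no test of age was possible, and age cannot be told apart from anything else that differed between the libraries.

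The pituitary is supplied by a portal circulation, in which blood passes through a first capillary bed below the hypothalamus and then through sinusoids of the anterior lobe, carrying releasing factors in and hormones out. The endothelium of these sinusoids is fenestrated: its pores are spanned by diaphragms built from the protein encoded by Plvap, and it rests on a basement membrane of type IV collagen, laminins, nidogens and perlecan that the endothelium itself helps to make. Vascular endothelial growth factor signalling keeps such capillaries fenestrated, while Notch and bone morphogenetic protein (BMP) signalling set arterial identity and quiescence.

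The label was checked on genes the choice had not used. Of the 5 marker genes given for the class, Plvap, Pecam1, Kdr and Emcn were part of the rule, so their presence was fixed by the choice. Among the 30 genes with the largest ratio over all other kept barcodes, 16 were on a list of pan-endothelial genes and 5 of the 30 had been used to choose the members. These counts overlap: Kdr, Cdh5, Emcn and Pecam1 are in both, and their place among the 30 has no weight for the label. Flt1, a VEGF receptor that was not used in the choice, was 397-fold higher in young members and 212-fold higher in old members than in the other barcodes of the same library. As a description of the limit, with no weight for the label, medians on the rule's own genes were 41 and 50.5 UMIs in young and old members, the lowest members had 11 and 9, and 3 members of each library held 8 to 12. Outside the rule, only 6 young and 6 old barcodes had 5 to 7 UMIs, with highest values of 6 and 7. A further 16 young and 16 old barcodes had 8 or more endothelial UMIs and were left out because of fibroblast or C1q transcripts.

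**Figure D1:**
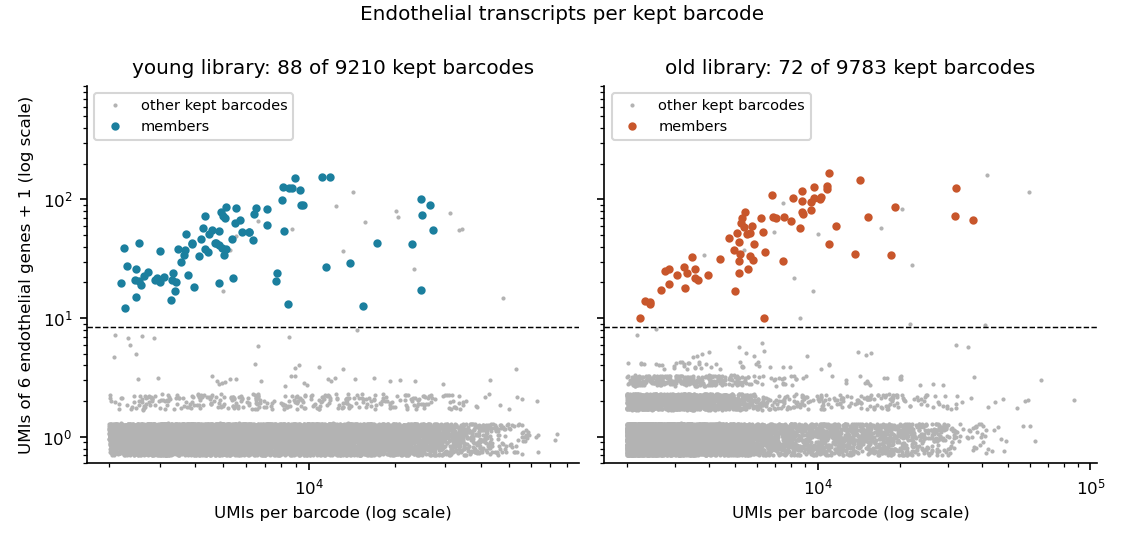
Endothelial transcripts in each kept barcode of the young and the old library, as UMIs of the 6 genes of the rule plus 1 (vertical log scale, with a small vertical jitter) against all UMIs of the barcode (horizontal log scale). The 88 young and 72 old members (coloured) lie above the dashed line at 8 UMIs and apart from nearly all other barcodes (grey); grey points above the line had over 5 fibroblast or C1q UMIs.

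Young members had a median of 4892 UMIs and 2069 genes, and old members 5828 UMIs and 2329.5 genes, so the old members held more UMIs each. Mitochondrial UMIs made up a median of 3.20% and 3.19%. No barcode sequence was shared between the members of the libraries, against 31 shared among all kept barcodes. Transcripts of other cells were present in part of the members. The 7 hormone genes made up a median of 7.77% of UMIs in young and 4.56% in old members, and over 20% in 10 young and 3 old members. Pericyte and smooth muscle markers summed to 370 UMIs in young and 107 in old members, with 282 and 62 of these in the top 2 members of each library. Macrophage markers summed to 61 and 165 UMIs and lymphocyte markers to 2 and 59, with 9 of 10 lymphocyte markers at 0 in the young members. Haemoglobin and other erythroid markers summed to 1814 and 3598 UMIs, of which 1730 and 3480 came from 2 members of each library. No doublet was removed, since the automatic threshold of the doublet caller Scrublet called 0% of young and 0.0307% of old barcodes. The 7.37% of young and 7.83% of old barcodes with the highest scores held 13 of the 88 young and 3 of the 72 old members. Each result below was therefore also computed on members with few transcripts of other cells, 70 of the 88 young and 51 of the 72 old ones. These are called single-lineage members. These had at most 20% hormone UMIs, 5 UMIs of pericyte markers, 5 of immune markers and 10 each of erythroid, stem cell and pituicyte markers, limits set after the data were seen.

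Members made up 0.955% (exact interval 0.767 to 1.18) of the young and 0.736% (0.576 to 0.926) of the old kept barcodes, a ratio of old over young of 0.770 (0.556 to 1.06). The ratio depended on what the members were counted against. Among barcodes with under 25% hormone UMIs, the shares were 1.41% and 2.50%, a ratio of 1.77 (1.26 to 2.46). Per macrophage barcode, members were 1.65 times (1.19 to 2.28) as frequent in the old library, per fibroblast barcode 1.08 times (0.780 to 1.49) and per growth hormone cell barcode 2.62 times (1.89 to 3.61). The old library held many kept barcodes of low UMI count, with a median of 3240 UMIs against 6585 in the young library and hormone shares of 34.3% and 17.3%. No direction of the endothelial share was read from these values.

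Gene levels are CPM (counts scaled to a fixed library total) of the UMIs summed over members, after leaving hormone and mitochondrial genes out of the total, and ratios are old over young with 0.5 UMI added. CPM of 3′ data allow a gene to be compared between libraries and not with another gene. Of 7261 genes with at least 20 UMIs over both libraries, 4.43% (322) were at least 2-fold higher in old members and 5.19% (377) at least 2-fold lower. At any size, 47% of genes were higher in old members, and the median log2 ratio over all tested genes was -0.06. With a total of all UMIs, hormone genes included, the log2 ratios moved up by 0.13, and 449 genes were then 2-fold higher and 248 lower.

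The endothelial identity of the members was carried at much the same level in both libraries. Of 32 pan-endothelial genes, 31 could be measured, 15 higher and 16 lower in old members, with a median log2 ratio of -0.02. Of these, 2 were at least 2-fold higher and 0 as much lower, and the log2 ratios ran from -0.85 to 1.30. The list held the rule genes Pecam1, Cdh5, Kdr, Emcn and Egfl7, whose presence was fixed by the choice. Cdh5, the cadherin of endothelial junctions, stood at 549 CPM in young and 433 in old members, and the platelet endothelial adhesion molecule Pecam1 at 543 and 475. Plvap, the diaphragm gene, had 3133 and 2463 CPM, and 4070 and 2626 CPM in single-lineage members. Cdh5, Pecam1 and Plvap were used to choose the members. Among genes the rule did not use, the endothelial transcription factor Erg had 132 and 113 CPM and the TGF-beta co-receptor endoglin, encoded by Eng, 804 and 791. The list of fenestral and caveolar genes showed a similar balance over all members, with 4 of 10 measured genes higher. Its median was -0.06, and from -0.33 to 0.06 over the alternatives. Its member with the largest difference was Cavin3, a coat protein of caveolae, with 353 UMIs (704 CPM) in young and 159 UMIs (304 CPM) in old members, 2.31-fold lower. Single members overlapped broadly for Plvap, with medians of 30.8 and 26.9 UMIs per 10000 UMIs of a member, hormone and mitochondrial genes left out.

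Basement membrane genes stood apart from this balance. Of 19 genes listed, 17 were measured: 15 were lower and 2 higher in old members, 6 were at least 2-fold lower, and the median log2 ratio was -0.72 against -0.06 over all tested genes. Col4a1 and Col4a2 encode the 2 chains of the commonest type IV collagen of basement membranes. They are neighbours on chromosome 8, read in opposite directions from a shared start region, and the sequence is shown because both genes were lower together. Each window runs from 250 bases before to 50 bases after the RefSeq gene start on build GRCm38.p6, which is not the build of the count matrices, and capitals mark the 78 bases that both windows hold. Col4a1 covers chr8:11312777-11313076 on the minus strand and Col4a2 covers chr8:11312555-11312854 on the plus strand, with starts 21 bases apart.
Col4a1: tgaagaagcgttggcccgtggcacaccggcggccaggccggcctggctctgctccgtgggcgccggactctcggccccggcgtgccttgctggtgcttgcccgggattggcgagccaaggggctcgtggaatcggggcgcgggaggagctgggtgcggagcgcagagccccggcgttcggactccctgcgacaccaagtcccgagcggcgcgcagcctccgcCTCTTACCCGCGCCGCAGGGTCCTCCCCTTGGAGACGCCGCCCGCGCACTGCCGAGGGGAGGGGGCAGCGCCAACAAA
Col4a2: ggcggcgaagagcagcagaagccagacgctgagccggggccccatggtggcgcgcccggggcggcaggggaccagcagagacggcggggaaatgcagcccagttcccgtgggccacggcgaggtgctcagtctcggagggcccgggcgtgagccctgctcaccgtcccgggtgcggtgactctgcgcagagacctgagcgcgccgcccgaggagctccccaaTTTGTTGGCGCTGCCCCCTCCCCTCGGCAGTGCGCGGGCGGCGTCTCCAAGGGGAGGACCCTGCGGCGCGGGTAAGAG
The CCAAT motif, searched on both strands, occurred 1 time in each window, and 37.4% of 32544 promoter windows of the same length held it. Neither match lay wholly within the shared bases, and the Col4a2 match ended on the first of them. GGGCGG occurred 1 time in the Col4a1 window and 3 times in the Col4a2 window, 1 of these within the shared bases, and 35.9% of windows held it.

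In the cells, Col4a1 had 587 UMIs (1171 CPM) over young members and 180 UMIs (345 CPM) over old members, 3.39-fold lower (2.87 to 4.04). Col4a2, its partner chain, had 337 UMIs (672 CPM) and 77 UMIs (147 CPM), 4.54-fold lower (3.55 to 5.92). The difference was spread over the members and did not come from a few: after thinning every member to 2000 UMIs, Col4a1 was seen in 76.1% of young and 47.2% of old members, and in 0.319% and 0.680% of growth hormone cells, which serve as a measure of free RNA (median UMIs before thinning 20230.5 and 16942.5). Summed per member, the pair had a median of 14.0 UMIs per 10000 in young and 4.37 in old members. Sparc, which encodes a collagen-binding matrix protein, had 1098 UMIs (2191 CPM) and 404 UMIs (773 CPM), 2.83-fold lower (2.53 to 3.18), and its median per member was 19.8 and 7.25 per 10000. All 88 young members and 66 old members had a Sparc UMI.

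Most of the rest of the list was lower in old members too, and the sparse Lamb1 had the largest difference of its measured genes. Hspg2, the gene of the heparan sulfate proteoglycan perlecan, had 204 UMIs (407 CPM) and 106 UMIs (203 CPM), 2.00-fold lower (1.58 to 2.56). Serpinh1, the collagen chaperone of the endoplasmic reticulum, had 146 UMIs (291 CPM) and 77 UMIs (147 CPM), 1.97-fold lower (1.49 to 2.64). The laminin gene Lamb1 was counted 23 times in young and 1 time in old members, 16.3-fold lower with a wide interval (3.89 to 988). The nidogens Nid1 and Nid2, which link laminin to collagen, were 1.64-fold and 1.61-fold lower, the Nid2 interval including no difference. The exceptions were Timp3, an inhibitor of metalloproteinases that is held in the matrix, with 930 UMIs (1856 CPM) and 1599 UMIs (3061 CPM), 1.65 times as high (1.52 to 1.79), and Sparcl1, a relative of Sparc, at 1.65 times (1.30 to 2.10). In single-lineage members the list's median was -0.89, and over the alternatives it ranged from -0.96 to -0.59. The list's median was -0.62 in the 33 young and 25 old fibroblast barcodes, 0.07 in macrophages and 0.13 in growth hormone cells. Col4a1 and Col4a2 had low counts in macrophages and growth hormone cells that were lower in the old library as well. Col4a1 had 45 and 11 UMIs in macrophages and 40 and 4 in growth hormone cells, and Col4a2 28 and 6 in macrophages. For Col4a1 this was 10.2 and 4.46 CPM in macrophages and 3.90 and 1.27 CPM in growth hormone cells. Both were below barcodes of at most 100 UMIs, where Col4a1 had 18.0 and 9.18 CPM and was also lower in the old library. Endothelial transcripts were also lower in the old fibroblast barcodes: Plvap had 181 and 15 UMIs, Pecam1 25 and 2, and the pan-endothelial list a median log2 ratio of -1.25 over 19 genes. Fibroblast barcodes with 8 or more endothelial UMIs numbered 6 and 3, and the part of these transcripts in the fibroblast values was not tested.

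**Figure D2:**
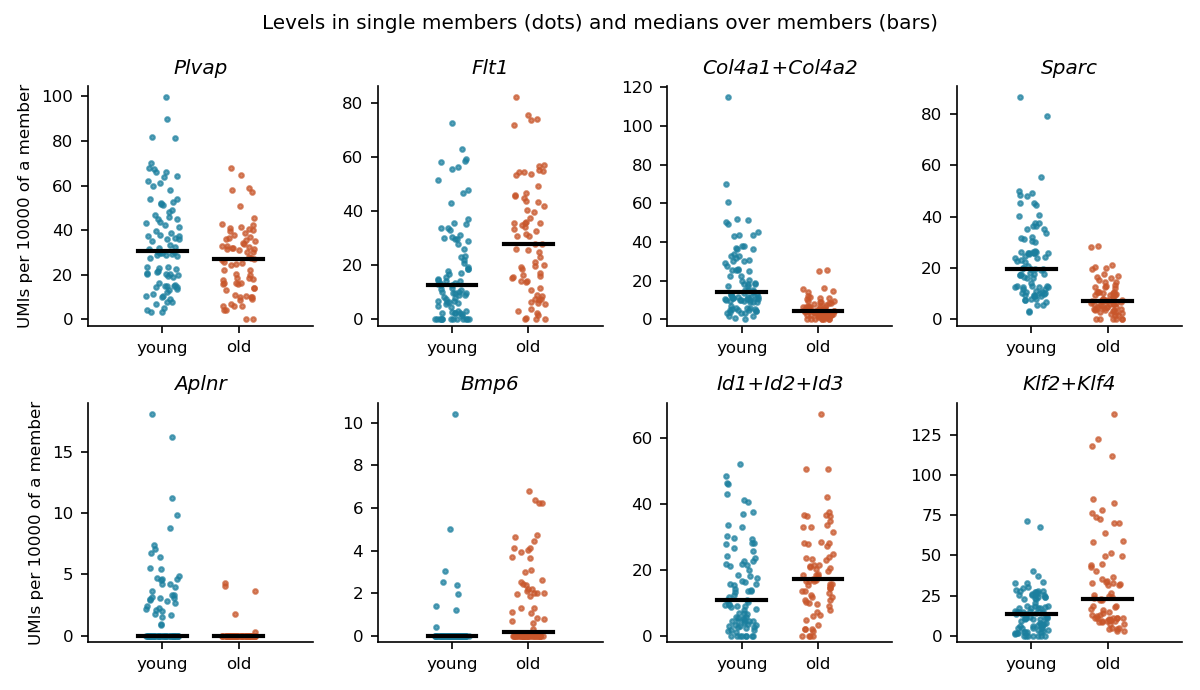
Levels in single members of the young (blue) and the old (orange) library, as UMIs of the gene or gene pair per 10000 UMIs of the member (vertical axis), each dot a member and each bar the median over members. Plvap overlaps between libraries (medians 30.8 and 26.9), most old members lie low for Col4a1 with Col4a2 (14.0 and 4.37) and for Sparc (19.8 and 7.25), and Flt1 (12.7 and 27.9) is higher in old members.

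VEGF and apelin signalling genes diverged among themselves. Of 18 genes, 15 were measured, 6 higher and 9 lower in old members, with 1 and 3 past 2-fold and a median of -0.45, and from -0.70 to -0.15 over the alternatives. Among the receptors, Kdr, the main signalling receptor for VEGF and a gene of the rule, had 792 UMIs (1580 CPM) and 915 UMIs (1751 CPM). Flt1, whose product binds VEGF tightly and acts largely as a decoy, had 773 UMIs (1542 CPM) and 1410 UMIs (2699 CPM), 1.75 times as high (1.60 to 1.91), with medians of 12.7 and 27.9 UMIs per 10000 of a member. The co-receptor Nrp1 was 1.32 times as high, at 800 and 1060 CPM, whereas the receptor of VEGF-C, Flt4, was 1.63-fold lower at 176 and 107 CPM. The angiopoietin receptor Tek, a gene of vessel stability, had 190 and 209 CPM.

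Aplnr, the receptor for the peptide apelin and a gene of sprouting and venous endothelium, headed the 12 genes named for being lower in old members. It had 90 UMIs (180 CPM) in 39 young members and 7 UMIs (13.4 CPM) in 5 old members, 12.6-fold lower (6.25 to 34.3). No growth hormone cell had an Aplnr UMI after thinning, which allows a share of up to 0.319% and 1.02%. Its ligand Apln, found in tip cells, had 29 and 22 UMIs, but 23 and 3 in single-lineage members. Esm1, another tip cell gene and a VEGF target, went the other way with 89 UMIs (178 CPM) in 17 young members and 200 UMIs (383 CPM) in 31 old ones, 2.15 times as high (1.67 to 2.80). Only 3 young members held 57.3% of the young Esm1 UMIs. Plxnd1, a semaphorin receptor that restrains sprouts, was 2.03-fold lower at 269 and 132 CPM, and the abundant insulin-like growth factor binding protein Igfbp3 was 1.53-fold lower at 2237 and 1459 CPM.

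Genes of the BMP pathway that were higher in old members included the ligand gene Bmp6 and the genes Id1 and Id2. Whether these differences are linked was not tested. Of 19 BMP and TGF-beta genes, 17 were measured, 9 higher and 8 lower, with 5 at least 2-fold higher and 0 as much lower. Bmp6, a ligand that liver sinusoidal endothelium secretes to control iron, had 17 UMIs (33.9 CPM) in 9 young members and 78 UMIs (149 CPM) in 36 old ones, 4.30 times as high (2.58 to 7.94). The inhibitors of differentiation Id1 and Id2, target genes of BMP signalling, were 2.19 times (1.81 to 2.68) and 2.25 times (1.60 to 3.26) as high. Id1 had 151 and 346 UMIs and Id2 47 and 111. Id2 stood at 93.8 and 212 CPM, against 78.4 and 84.2 CPM in barcodes of at most 100 UMIs. In single-lineage members Id2 had 23 and 39 UMIs, a log2 ratio of 0.94. Id3 of the same family was not higher in old members, with 476 and 494 UMIs (950 and 946 CPM). Over the 3 genes together, the median per member was 10.8 and 17.1 UMIs per 10000. The inhibitory Smad6 had 9 and 27 UMIs, Smad7 was 1.54 times as high, and the BMP receptor gene Bmpr2 1.67 times, at 369 and 616 CPM, while the receptor-regulated Smad1 and Smad5 were 1.43-fold and 1.55-fold lower. The ligand Tgfb2 had 7 and 43 UMIs, but 1 and 20 in single-lineage members. The list's median of 0.39 was not stable: it was 0.09 in single-lineage members, -0.11 in thinned members and -0.0066 at a minimum of 50 UMIs.

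Genes of arteries and veins had low counts in the members. Of 18 arterial genes, 14 were measured, 11 higher and 3 lower in old members, with a median of 0.75 and of 0.31 in single-lineage members. These medians cover different genes, since Gja4, Hey1, Jag1, Alpl and Vegfc fell under 20 UMIs in single-lineage members and were left out. Cxcl12, the chemokine that arterial and stromal cells secrete, had 30 UMIs (59.9 CPM) in 15 young members and 120 UMIs (230 CPM) in 30 old ones, 3.79 times as high (2.55 to 5.93). Sox17, a factor of arterial fate, had 16 and 42 UMIs, Sema3g, a semaphorin of arterial endothelium, 8 and 35, and the phosphatase gene Alpl 3 and 27. Fbln5, an elastic fibre gene, went the other way with 43 and 20 UMIs. Bmx had no UMI in either library, Gja5 had 1 and 0, and the venous genes Selp and Ackr1 had none. Alpl's 3 young UMIs lay in 1 member. A count of 0 in 88 and 72 members allows a share of members with a UMI of up to 3.41% and 4.17%, which does not limit the share that expresses the gene. After thinning, 22 young members (25.0%, 16.4 to 35.4) and 26 old members (36.1%, 25.1 to 48.3) had 3 or more arterial UMIs, intervals that overlap. Growth hormone cells reached that count in 0.957% and 0% (up to 1.02%). Thinned sums left 5 arterial genes, with a median of -0.18, so the arterial median rested on genes of low count.

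Over all members, venous genes ran lower without passing 2-fold. All 5 measured of 14 were lower in old members, led by Nr2f2, the transcription factor of venous fate, with 79 and 49 UMIs. The ephrin receptor gene Ephb4 had 58 and 37. In single-lineage members Nr2f2 and Ephb4 had log2 ratios of -1.04 and -0.70, while Lrg1 (0.05) and Icam1 (0.29) of the list were higher. In thinned members 9 (10.2%) and 8 (11.1%) had 3 or more venous UMIs. Mfsd2a and Slco1c1, transporter genes of the blood-brain barrier, had no UMI in either library, and neither had the lymphatic gene Lyve1. Slco1a4, a further barrier transporter, had 0 and 12 UMIs. Cldn5, the claudin that seals barrier capillaries, had 71 UMIs in 16 young and 10 UMIs in 6 old members, 7.10-fold lower (3.80 to 16.1), with 29 of the young UMIs in 1 member. Mmrn1, which encodes the secreted glycoprotein multimerin and is most often used as a lymphatic gene, had 59 UMIs (118 CPM) in 28 young and 7 UMIs (13.4 CPM) in 5 old members, 8.27-fold lower (4.01 to 22.8). Prox1, the master factor of lymphatic fate, had 11 and 8 UMIs.

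Notch genes were balanced, with 6 of 12 measured genes higher and a median of 0.07. The Notch target Hey1 had 7 and 27 UMIs, with 14.0 CPM in young members against 17.5 CPM in their free RNA, and the target Hes1 157 and 124.

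Among flow-responsive genes, Klf2 and Klf4 were higher in old members, while the list as a whole was not stable. Laminar shear stress induces the factors Klf2 and Klf4 in endothelium, and thrombomodulin, the thrombin-binding anticoagulant encoded by Thbd, is a target of both. Of 16 genes of flow response and haemostasis, 12 were measured, 9 higher and 3 lower, with a median of 0.29. The median was 0.07 in single-lineage members and -0.0018 with the highest Scrublet scores removed. Klf4 had 281 UMIs (561 CPM) and 817 UMIs (1564 CPM), 2.79 times as high (2.43 to 3.21). Klf2 had 513 UMIs (1024 CPM) and 1013 UMIs (1939 CPM), 1.89 times as high (1.70 to 2.11), and Thbd 57 and 104 UMIs, 1.74 times. Summed over both factors, the median member had 13.7 and 22.9 UMIs per 10000. Klf4 was also in free RNA, at 388 and 427 CPM in barcodes of at most 100 UMIs, and after thinning 39.3% and 47.6% of growth hormone cells and 37.5% and 65.3% of members had a Klf4 UMI. Klf2 is among the genes induced by dissociation too, and the 18 immediate early genes, such as Fos and Jun, were higher in 16 cases, with a median of 0.44 and of 1.02 in single-lineage members. Fos had 3877 and 5248 CPM in members and 5050 and 4111 CPM in barcodes of at most 100 UMIs, a level that the members did not exceed in the young library. Their part in the values of Klf2 and Klf4 was not tested. Genes of the glucocorticoid response, the receptor gene Nr3c1 among them, were higher in 11 of 12 cases, with a median of 0.32 and none at 2-fold. They summed to 3913 and 4919 CPM in members, below the 9395 and 7102 CPM in barcodes of at most 100 UMIs.

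Capillary transport genes were mixed. Of 9 measured genes of lipid and water transport, 5 were higher and 4 lower, with a median of 0.27. Car4, a carbonic anhydrase on the capillary surface, had 13 and 42 UMIs, Kitl, the ligand of the receptor Kit, 90 and 201, and the lipoprotein lipase gene Lpl 26 and 66. Gpihbp1, which encodes the protein that carries lipoprotein lipase across the endothelium, had 184 UMIs (367 CPM) and 95 UMIs (182 CPM), 2.01-fold lower. The fatty acid binding protein gene Fabp4 had 369 and 444 CPM, and the water channel gene Aqp1 128 and 124 CPM.

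Interferon-response genes were mostly lower in old members. Of 37 genes, 34 were measured, 27 lower and 7 higher, with 8 at least 2-fold lower, 1 as much higher, and a median of -0.46. The median ranged from -0.71 to -0.34 over the alternatives. Iigp1, an interferon-inducible GTPase, had 285 UMIs (569 CPM) and 141 UMIs (270 CPM), 2.10-fold lower (1.72 to 2.60), and guanylate binding protein genes Gbp2 and Gbp6 had 39 and 12 and 21 and 5 UMIs. The abundant antiviral membrane protein gene Ifitm3 was 1.38-fold lower at 1814 and 1319 CPM, and Bst2, encoding tetherin, 1.55-fold lower at 549 and 354 CPM. Ly6a, the stem cell antigen found on many endothelia, was the abundant exception with 508 UMIs (1014 CPM) and 793 UMIs (1518 CPM), 1.50 times as high. The same list had medians of -0.29 in macrophages, -0.55 in fibroblast barcodes and 0.20 in growth hormone cells. Major histocompatibility complex (MHC) class I genes were balanced, with 9 of 15 higher, none at 2-fold and a median of 0.07.

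MHC class II genes, which present antigen to helper T cells, were higher in all 5 measured cases, but at a level below that of free RNA. They summed to 104 CPM in young and 735 CPM in old members, against 1710 and 5782 CPM in barcodes of at most 100 UMIs and 157 and 572 CPM in growth hormone cells, which do not make them. Of the 384 UMIs in old members, 119 were in the 9 members with more than 5 UMIs of immune markers. In single-lineage members, Cd74 had 11 and 57 UMIs and H2-Aa 3 and 34. How much of these values was free RNA was not tested. Ccl5, a chemokine of lymphocytes, had 1 and 41 UMIs, 34 of them in 1 old member. Cxcl10, an interferon-induced chemokine, had 73 and 17 UMIs, 34 of them in 1 young member. Leukocyte adhesion genes showed no gene past 2-fold, with 4 of 14 higher and a median of -0.22, and Icam1, the ligand of leukocyte integrins, had 172 and 167 CPM.

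Genes of growth and stress were mixed. Of 11 measured cell cycle genes, 9 were lower in old members and 3 at least 2-fold, but 17 of the 21 young Mki67 UMIs and 18 of the 19 young Top2a UMIs lay in 1 member. Ccnd1, the cyclin of early cell cycle entry, was not tied to such a member and had 159 UMIs (317 CPM) and 82 UMIs (157 CPM), 2.02-fold lower, while its free RNA was also lower, at 123 and 31.0 CPM. Among 14 measured genes of senescence and p53 response, 8 were higher and 6 lower with a median of 0.10, and 2 were at least 2-fold higher and 4 at least 2-fold lower. Plk2, a stress-induced kinase, had 127 and 283 UMIs, and Phlda3, a p53 target that restrains Akt signalling, 40 and 15. The cell cycle inhibitor Cdkn1a had 77 and 94 UMIs, and the apoptosis gene Bax 117 and 58 UMIs, 2.09-fold lower, where old members at 111 CPM did not exceed their free RNA at 119 CPM. Respiratory chain genes of the nucleus were lower in 36 of 43 cases with a median of -0.30 and none at 2-fold. Those genes summed to 14054 and 11567 CPM in members, below the 21731 and 24140 CPM in barcodes of at most 100 UMIs. The 13 mitochondrial ones had a median of 0.17. Heat shock genes had a median of 0.02, but of 0.48 in single-lineage members. Genes of the unfolded protein response had a median of -0.14, and of -0.21 in single-lineage members.

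**Figure D3:**
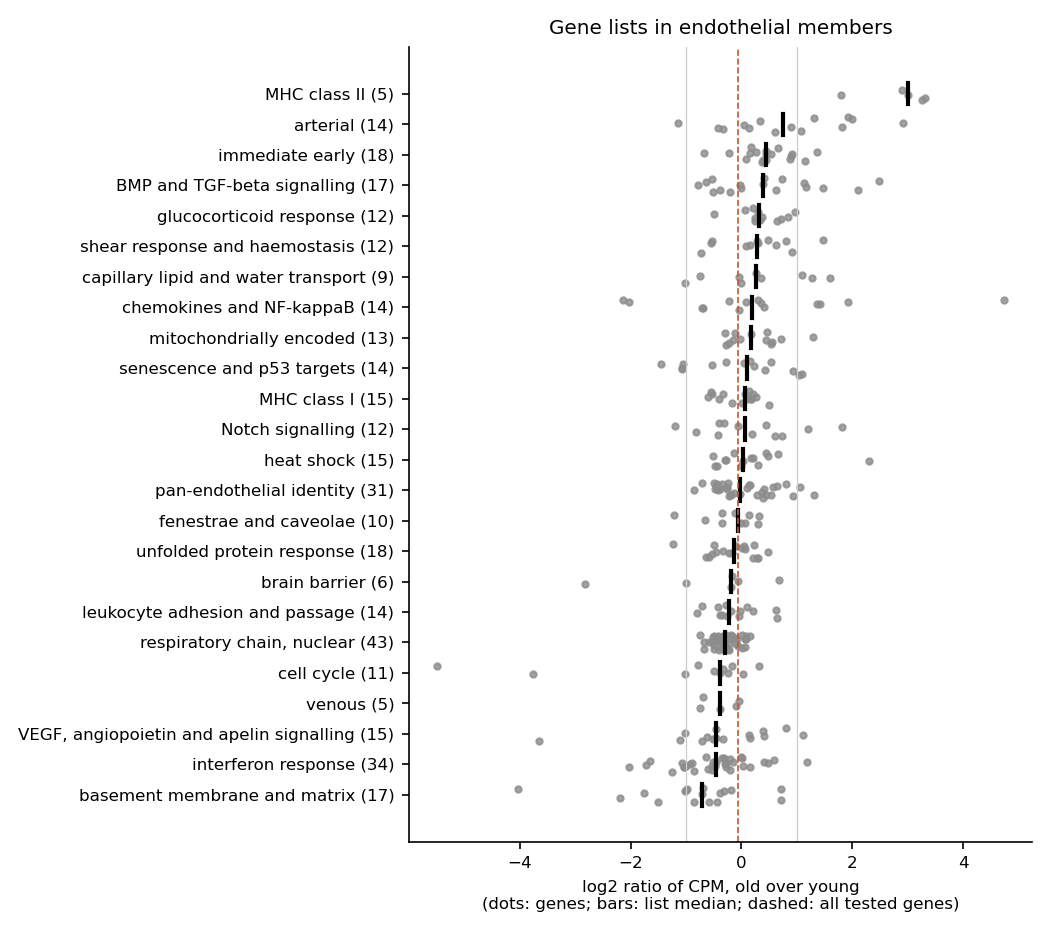
Log2 ratio of CPM, old over young, in members for each measured gene (dots) of the lists named on the vertical axis, with the number of genes in brackets, the list's median (bar), the median of all tested genes at -0.06 (dashed) and 2-fold limits (grey lines). Basement membrane genes lie lowest, with a median of -0.72, interferon-response genes at -0.46, and MHC class II genes, which were below their free RNA level, at 3.01.

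The genes with the largest differences were named by a rule that asked for 50 UMIs, a level above free RNA, a level of at least 0.2 times that of the other cell classes, and spread over members; 34 genes higher in old members and 40 lower met it, and the first 12 of each were named. Among those higher in old members, the first was Fmo2, a flavin monooxygenase of drug metabolism, with 8 UMIs (16.0 CPM) in 5 young members and 92 UMIs (176 CPM) in 31 old ones, 10.4 times as high (5.37 to 26.3). Its neighbour in function Fmo1 had 24 UMIs (47.9 CPM) in 19 young and 88 UMIs (168 CPM) in 44 old members, 3.46 times as high (2.22 to 5.78). Either gene was seen in 22 of 88 young and 52 of 72 old members. After thinning, Fmo1 was in 5.68% and 29.2% of members and in 0.213% and 0% of growth hormone cells, where a count of 0 allows up to 1.02%.

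Of the other genes named as higher in old members, Slc6a6, the taurine transporter, had 106 UMIs (212 CPM) and 382 UMIs (731 CPM), 3.45 times as high (2.78 to 4.33). Hmcn1, which encodes the matrix protein hemicentin, had 23 UMIs in 16 young and 81 UMIs in 40 old members, 3.33 times as high (2.10 to 5.63). Btnl9, a butyrophilin-like gene typical of capillary endothelium, had 66 UMIs (132 CPM) and 194 UMIs (371 CPM), 2.81 times as high (2.12 to 3.79), and was in no thinned macrophage or growth hormone cell. Id4, of the Id family, had 19 and 62 UMIs, at 37.9 CPM in young members against 36.0 CPM in their free RNA. The adhesion molecule gene Ceacam1 had 17 and 51 UMIs and the death receptor gene Fas 19 and 56.

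The remaining 7 genes named as lower in old members had varied roles. Ppic, a cyclophilin of the secretory pathway, had 68 UMIs (136 CPM) in 38 young and 20 UMIs (38.3 CPM) in 18 old members, 3.48-fold lower (2.13 to 6.16). Trp53i11, a p53-inducible gene, had 193 UMIs (385 CPM) and 60 UMIs (115 CPM), 3.33-fold lower (2.50 to 4.56). The phosphatase gene Ptp4a3 was 2.68-fold lower at 192 and 70.8 CPM, Flrt2, a guidance receptor gene, 2.66-fold lower at 114 and 42.1 CPM, and Fscn1, the actin-bundling fascin of filopodia, 2.56-fold lower at 134 and 51.7 CPM. Stab1, a scavenger receptor of sinusoidal endothelium, had 72 and 30 UMIs, 2.48-fold lower (1.61 to 3.97). Yipf3, of the Golgi, had 112 and 44.0 CPM with 101 CPM in the free RNA of both libraries, so the young level was little above free RNA and the old level below it.

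**Figure D4:**
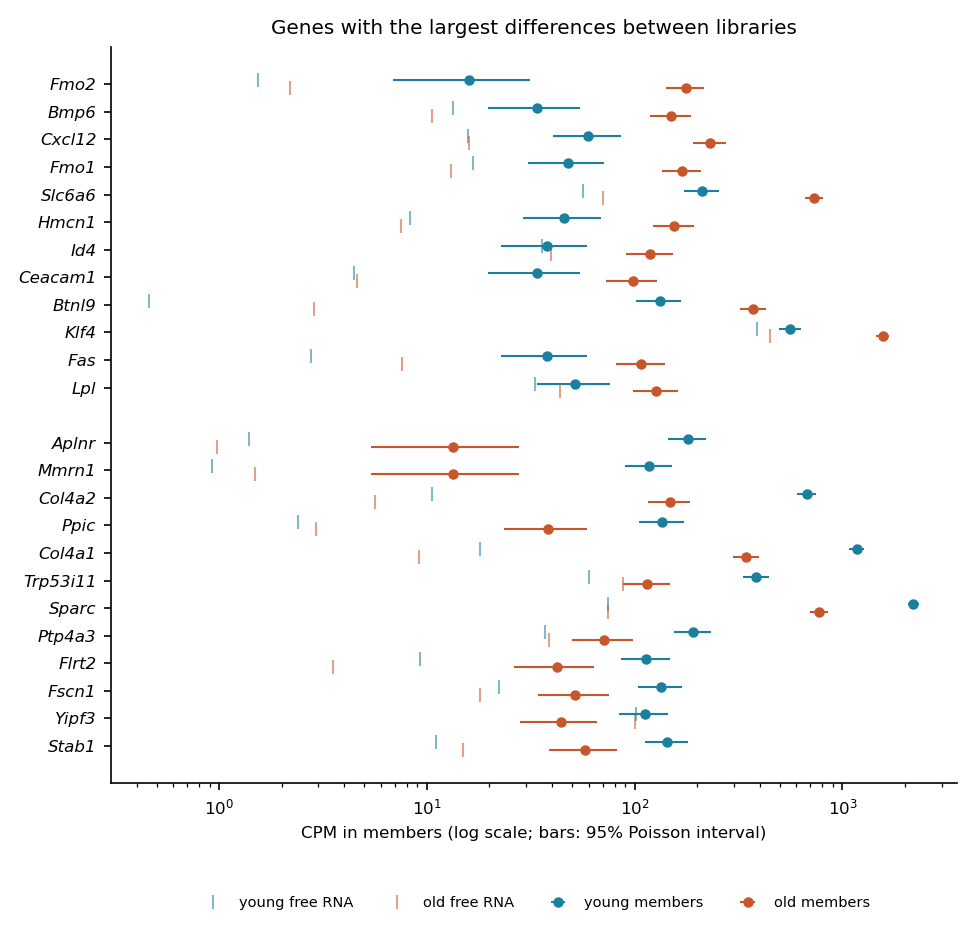
CPM (horizontal log scale) of the 24 named genes in young (blue) and old (orange) members, with 95% Poisson intervals for counting error (bars) and the level in free RNA of the same library (ticks, the higher of the profiles). Fmo2 stands at 16.0 and 176 CPM, Aplnr at 180 and 13.4 CPM and Col4a1 at 1171 and 345 CPM.

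These genes were then followed in other cells of the same libraries, where they had not been chosen for a difference. Of the 12 genes lower in old members, 7 had 20 UMIs in fibroblast barcodes: all 7 were lower there too, 4 of them past 2-fold, with a median of -1.32. Col4a1 had 936 and 297 CPM in fibroblast barcodes, Col4a2 395 and 130 CPM and Sparc 2770 and 1105 CPM. The endothelial transcripts of the fibroblast barcodes were lower as well, with a pan-endothelial median of -1.25, and their part in these values was not tested. In macrophages 6 of 9 were lower, 2 of them past 2-fold (Col4a1 at -1.15 and Col4a2 at -1.29), with a median of -0.06, and Sparc had 393 and 387 CPM. Macrophages had 10.2 and 4.46 CPM of Col4a1 and 6.35 and 2.43 CPM of Col4a2. Barcodes of at most 100 UMIs had more, at 18.0 and 9.18 CPM and at 10.6 and 5.63 CPM. In growth hormone cells 5 of 7 were lower, 1 of them past 2-fold (Col4a1 at -1.47), with a median of -0.37. Col4a1 was below free RNA there too, at 3.90 and 1.27 CPM. Of the 12 genes higher in old members, 6 of 10 were higher in macrophages (median 0.30), 4 of 7 in fibroblast barcodes (0.44) and 9 of 10 in growth hormone cells (0.59). Klf4 had a log2 ratio of 1.48 in members, -2.49 in fibroblast barcodes, 0.59 in macrophages and 0.63 in growth hormone cells. Whether any of these ratios differed between the classes was not tested, since each class had 1 library per age. The share of all genes lower or higher in these other cells was not computed. The counts of named genes there therefore have no base to be read against.

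**Figure D5:**
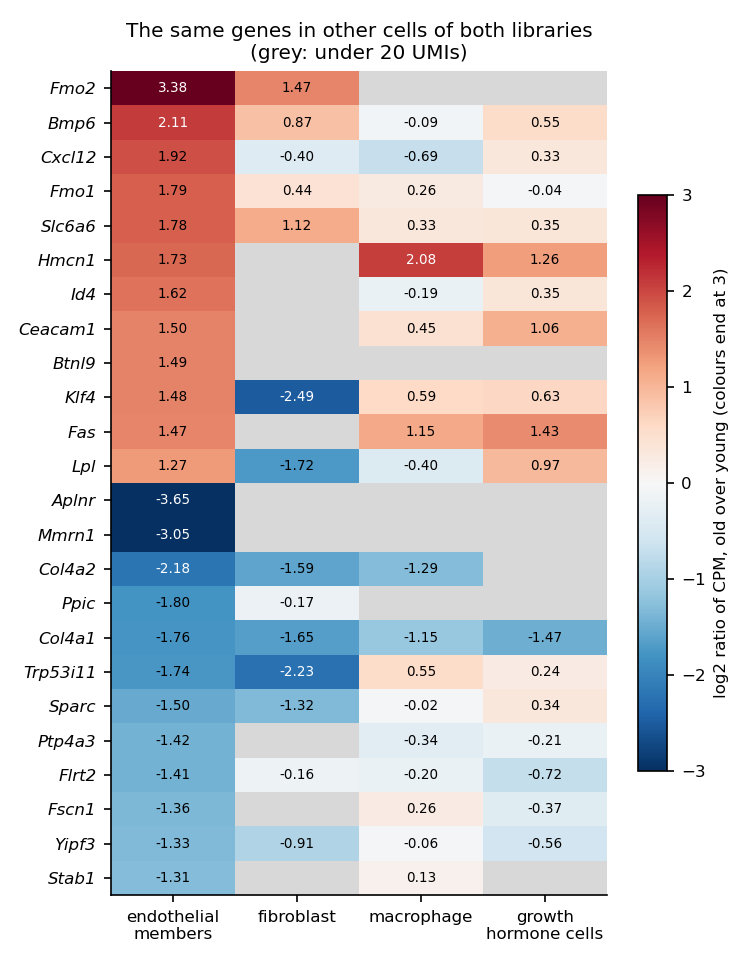
Log2 ratio of CPM, old over young, of the 24 named genes (vertical axis) in endothelial members and in fibroblast, macrophage and growth hormone cell barcodes of the same libraries (horizontal axis), printed in each cell and coloured from blue (lower in old) to red (higher in old); grey marks genes with under 20 UMIs. Col4a1, Col4a2 and Sparc are lower in members and in fibroblast barcodes. In macrophages Col4a1 (-1.15) and Col4a2 (-1.29) are lower, at levels below those of barcodes of at most 100 UMIs, and Sparc is near 0 (-0.02).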

How the data were processed

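Single-cell suspensions of pituitary were measured with droplet-based 3′ libraries, 1 per age. The authors deposited unnormalised UMI counts for every gene and observed barcode, without cell calling; per the submitters' processing notes they were made with Cell Ranger 6.0.2 on build GRCm39, while the matrix header names version 4. Total counts were 154510099 (young) and 138427393 (old), and members summed to 602783 and 574887.

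The cell rule and gene lists were chosen with earlier results of these data known. UMIs were summed over members per library and expressed as CPM of a total that leaves out 7 hormone and 13 mitochondrial genes. Ratios had 0.5 UMI added, for genes with at least 20 UMIs over both libraries, and 2-fold was the size called. Intervals are exact at 95% (Clopper-Pearson for shares, Poisson for levels, conditional Poisson for ratios); a count of 0 allows 3 counts. With 1 library per age no p-value was computed. Named genes were the 12 highest and 12 lowest ratios among genes at 50 UMIs and 50 CPM in the higher library, at or above both free RNA profiles (barcodes of at most 100 UMIs and of 500 to 900 UMIs), at least 0.2 times the level of macrophage, fibroblast and growth hormone cell barcodes, and with no member holding over 20% of the UMIs. Ribosomal protein, mitochondrial, haemoglobin and hormone genes, unnamed gene models and the 6 rule genes were left out; members of the lists were named with their list. Macrophage and fibroblast barcodes had at least 20 UMIs of the C1q or of the fibroblast genes. Growth hormone cells had at least 3 Ghrhr UMIs and were used, with macrophages, for background shares after thinning to 2000 UMIs. Promoter windows came from RefSeq, build GRCm38.p6. Python 3.11.15 with numpy 2.4.6, scipy 1.17.1, pandas 2.3.3 and scanpy 1.11.5 was used, and the ratio code was tested on simulated data.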

Additional observations from a re-analysis of the deposited data

How the results depend on the processing

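Each value was recomputed under other barcode limits, member limits, totals, free RNA subtractions and count minimums; the single-lineage members were added after the data were seen. The share ratio of 0.770 was 0.428 at a minimum of 1000 UMIs, but turned to 1.22 at 3000 UMIs and to 1.77 among barcodes with under 25% hormone UMIs. Against 322 genes 2-fold higher, there were 119 in thinned members, 102 at a minimum of 50 UMIs and 2671 at 1 UMI, where fewer or more genes were tested. Against 377 lower genes, there were 163, 102 and 2389 under these settings and 248 with a total of all UMIs, which gave 449 higher. In single-lineage members, 104 of 218 higher and 130 of 286 lower genes were shared with all members. Except with a total of all UMIs, the number of genes tested differed in these settings. The counts there do not show whether the called share rose or fell, and the overlaps were not set against a share of all genes. The BMP median of 0.39 turned to -0.11 in thinned members and to -0.0066 at minimums of 50 UMIs and of 1 UMI, and the arterial median of 0.75 to -0.18 in thinned members; the cause was not tested beyond the number of genes measured. Of the 24 named genes, none reversed in 451 values over 19 settings, and 11 higher and 10 lower ones stayed past 2-fold in all of these. The exceptions were Fas (log2 ratio 0.93 with members weighted equally), Fscn1 (-0.98 thinned) and Yipf3 (-0.90 at 5 endothelial UMIs, -0.68 with members weighted equally). No paired analysis was possible because each age had 1 library, and no library could be left out. Depth limits genes under about 20 UMIs.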
